A study of Mus musculus with 4 samples.

Results

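The genes described here encode CD13 (Anpep), CD26 (Dpp4) and 7 further aminopeptidases and dipeptidyl peptidases (Lnpep, Dpp7, Dpp8, Dpp9, Lap3, Erap1 and Npepps), measured in dendritic cells sorted from mouse spleen. All 9 were found, each as 1 row, among the 17300 genes of the deposited table, and all 9 passed the filter on low values that left 11864 genes for testing. The genes were chosen by their peptidase function, and the difference between KO and WT in these same libraries was already known when they were proposed. For the 9 genes the KO minus WT values below, their standard errors and intervals, and the count past a threshold are therefore a description and no test of these genes. For other genes adjusted p values are given. Their lists were also chosen with earlier results of these data known, so the counts per list are a description too.

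Total RNA was sequenced in 4 libraries, 2 with the genotype label KO (titled EKO) and 2 with the label WT. The label does not name the deleted gene. By its title the series is about Siglec-E, an inhibitory receptor for sialic acid on myeloid cells, and its part in how transplants are rejected. Strain, age, sex and treatment of the mice are not given in the labels, and the prefix Allo of the table's columns is left unexplained there. The labels do not say whether libraries of 1 group are from different mice. The KO libraries differ in Y-linked RNA (values below) and so do not hold the same material, while for the WT libraries the spread may be technical only. Since their numbers differ from those in the titles, the KO columns are named A and B.

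Peptidases of these families shorten peptides from the amino end. Aminopeptidases take off 1 residue at a time, while dipeptidyl peptidases take off a pair of residues, mostly after proline or alanine. CD13 and CD26 are enzymes anchored in the plasma membrane with the active site outside the cell, and both are used as surface markers in dendritic cell biology, CD26 chiefly on the cross-presenting conventional DC1 subset. Lnpep (IRAP) sits in endosomal vesicles and at the surface, Erap1 trims peptides for MHC class I inside the endoplasmic reticulum, and Npepps, Lap3, Dpp8 and Dpp9 act mainly in the cytosol, while Dpp7 is found in lysosomes and other vesicles.

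The upstream sequences of Anpep and Dpp4 are shown because these genes had the largest KO minus WT differences of the 9. Each run is the 250 bases before the RefSeq start site, read 5′ to 3′ along the gene, from RefSeq on build GRCm38.p6 (the authors' build was GRCm39): chr7:79848211-79848460, minus strand, for Anpep and chr2:62412232-62412481, minus strand, for Dpp4. Capitals mark matches to the motifs named in the next paragraph.
Anpep: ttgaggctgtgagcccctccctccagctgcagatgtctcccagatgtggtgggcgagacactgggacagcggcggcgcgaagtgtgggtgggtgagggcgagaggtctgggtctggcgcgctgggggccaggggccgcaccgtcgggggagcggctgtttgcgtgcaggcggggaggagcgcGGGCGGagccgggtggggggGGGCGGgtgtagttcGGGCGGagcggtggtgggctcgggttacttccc
Dpp4: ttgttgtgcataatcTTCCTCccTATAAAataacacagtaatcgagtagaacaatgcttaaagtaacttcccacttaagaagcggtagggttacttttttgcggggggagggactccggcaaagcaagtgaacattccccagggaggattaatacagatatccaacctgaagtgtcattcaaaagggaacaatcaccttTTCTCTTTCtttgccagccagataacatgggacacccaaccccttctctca

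The windows differ in base composition. Counted over 300 bases (250 before and 50 after the start), the Anpep promoter had 28 CpG dinucleotides and 72.3% GC, and the Dpp4 promoter had 4 CpG and 45.3% GC, against medians of 7 CpG and 52.7% GC over 32851 mouse promoters of this length. All 9 genes had a promoter entry. Among the other 7, the CpG count ran from 9 in Dpp7 to 44 in Npepps, so Dpp4 was the only one of the 9 below the median of all promoters. On both strands, 7 motifs were searched. The TATA box was TATAAA. For ETS factors such as PU.1 only the letters GAGGAA, a purine-rich stretch, were searched. The AP-1 site was TGANTCA, and the spaced pair of cores bound by IRF factors was GAAANNGAA, where N is any base. The GC box bound by SP1 was GGGCGG, the E box was searched only in the form CACGTG, and the CCAAT box is spelled by its name. Other spellings of these motifs were not searched, so a window without a match can still hold them. The matches overlap nowhere in the printed runs.

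The Anpep window held 4 GC boxes, which begin at positions -68, -48, -33 and 21 (the start-site base is 1 and the base before it is -1). It held no match to the other motifs as spelled above. A GC box was present in 35.7% of all promoters. The Dpp4 window held no GC box. It held 1 TATAAA, which begins at position -227, far from where a working TATA box lies. It also held 1 GAGGAA (position -235) and 1 IRF pair (position -51), both read on the opposite strand. Such matches occurred in 13.6%, 28.3% and 8.56% of all promoters. AP-1 matches, present in 7.81% of promoters, were found in none of the 9 windows, which says only that these letters are not there. GENCODE M21 lists 4 coding transcripts for Anpep, which may not all share this start. The table gives 1 value per gene, so the start used in these cells was not measured.

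As a check of the labels, Siglece stood at 8.92 and 8.96 in KO A and KO B and at 10.38 and 10.14 in WT 1 and WT 2 (deposited log2 values), 7.18-fold fewer normalized counts in KO. Normalized counts are obtained from the log2 values by undoing their transform, and they summed to between 29002408 and 30952251 per library, after the authors' scaling, so sequencing depth itself is not known. KO A stood apart in Y-linked RNA (Ddx3y at 8.74, against 11.82 to 12.13 in the other libraries) and held more RNA of the plasmacytoid marker Siglech (13.44, against 12.39 to 12.70). Each difference of Anpep and Dpp4 is therefore also given without KO A, and no gene of the table passed the test below when KO A was left out (2508 had an unadjusted p under 0.05), against 3 genes without KO B. In limma, 822 of 11864 genes passed an adjusted p of 0.05 (Benjamini-Hochberg), 557 higher and 265 lower in KO, and with quantile normalization 366 higher and 282 lower.

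Of the 9 genes, 2 were past that threshold, Anpep and Dpp4, both lower in KO, beside 6.93% of all genes tested (2.23% lower and 4.69% higher). Since the genes were proposed with this contrast known, the count is no test and nothing is read from it. Both enzymes lie at the cell surface. The third membrane enzyme, Lnpep, and the 6 intracellular enzymes were not past the threshold, with differences between -0.16 and 0.07. The median difference was -0.13 over the 9 genes, -0.0092 over the 7 genes other than Anpep and Dpp4, and -0.0017 over all genes tested.

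**Figure D1:**
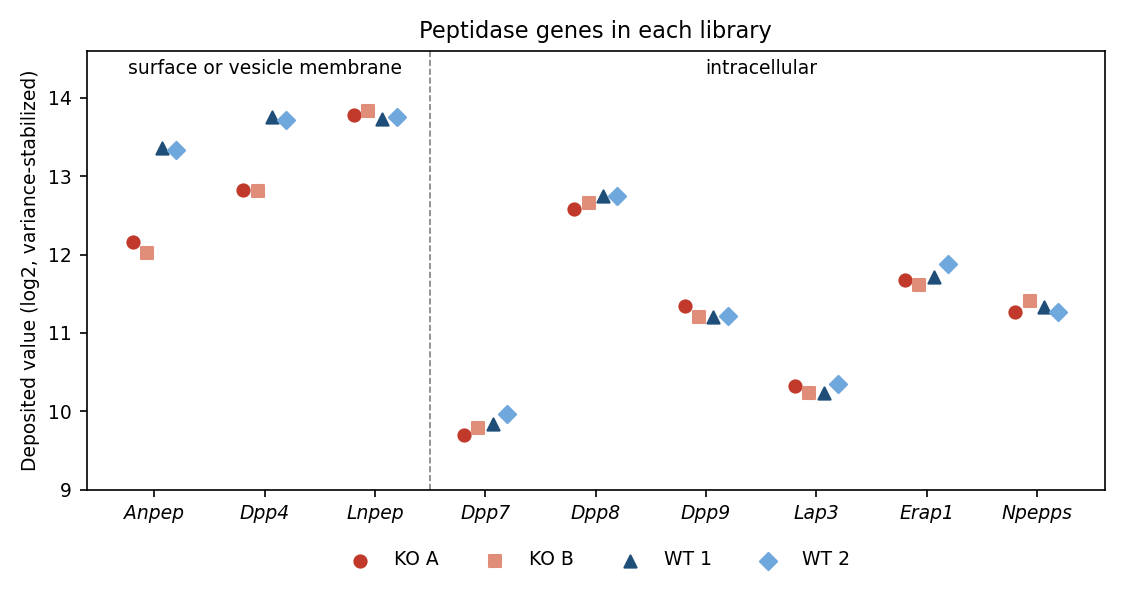
Deposited log2 value (y axis) of each of the 9 peptidase genes (x axis) in the 2 KO libraries (red) and the 2 WT libraries (blue), with 1 point per library. Anpep and Dpp4 are lower in both KO libraries (12.02 to 12.16 and 12.81 to 12.83) than in both WT libraries (13.33 to 13.36 and 13.71 to 13.75), whereas the points of the other genes lie close together.

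Anpep (ENSMUSG00000039062) encodes CD13, a zinc aminopeptidase of the M1 family that removes neutral residues from peptides at the cell surface. Its log2 values were 12.16 and 12.02 in KO A and KO B, and 13.36 and 13.33 in WT 1 and WT 2. Both KO libraries lay below both WT libraries, and the gap between the groups was far wider than the 0.14 between the KO libraries or the 0.03 between the WT libraries. In normalized counts the libraries held 4070, 3652, 10026 and 9783, a mean 2.57-fold lower in KO. The KO minus WT difference was -1.26 on the log2 scale (SE 0.0850, n = 2 each), at rank 6 among the falls of the 11864 genes tested. Ranks here and for Dpp4 are on this scale, which compresses low values. Some genes with smaller log2 falls fell further in counts, such as Fgf2 (-0.82, 5.54-fold lower). The Anpep difference was -1.32 without KO A and -1.19 without KO B, and -1.27 against WT 1 alone and -1.24 against WT 2 alone. With either KO library left out, neither Anpep nor Dpp4 was past the threshold. In bulk RNA of sorted cells, fewer cells that express a gene and less of its RNA per cell cannot be told apart, which applies to every value here.

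Dpp4 (ENSMUSG00000035000) encodes CD26, a serine peptidase that clips a dipeptide from chemokines and incretin hormones and also acts as a co-stimulatory molecule on T cells. On the log2 scale KO A stood at 12.83 and KO B at 12.81, while WT 1 stood at 13.75 and WT 2 at 13.71. The groups did not overlap, and the libraries of each group lay within 0.04 of each other. Normalized counts were 6765 and 6654 in KO against 13303 and 12899 in WT, 1.95-fold lower. The difference was -0.91 (SE 0.0763, n = 2 each), at rank 19 among the falls, with -0.93 without KO A, -0.90 without KO B, -0.94 against WT 1 and -0.89 against WT 2. Each KO library thus showed a wider gap to the WT mean for Anpep (-1.19 and -1.32) than for Dpp4 (-0.90 and -0.93).

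Lnpep (ENSMUSG00000023845) is the third membrane-bound enzyme of the set and, like Anpep, an M1 aminopeptidase. It stood at 13.78 and 13.83 in KO A and KO B and at 13.73 and 13.75 in WT 1 and WT 2. The KO values were slightly above the WT values, by 0.07 (SE 0.0776) with a 95% interval from -0.12 to 0.25. In counts the ratio of KO to WT was 1.05.

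**Figure D2:**
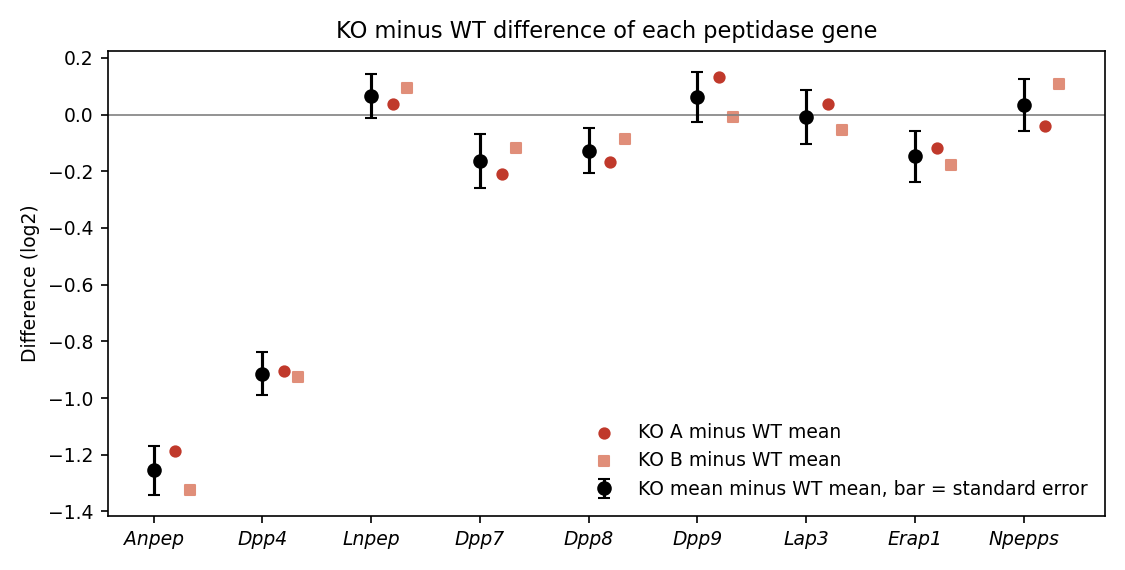
KO minus WT difference on the log2 scale (y axis) for each peptidase gene (x axis). Black points are the difference of group means with the moderated standard error from limma, and red points are each KO library minus the WT mean. Anpep (-1.26) and Dpp4 (-0.91) lie far below 0 in both KO libraries, and the other 7 genes lie between -0.16 and 0.07.

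Erap1 (ENSMUSG00000021583), the aminopeptidase that trims class I ligands in the endoplasmic reticulum, was at 11.68 and 11.62 in KO and 11.72 and 11.87 in WT. The KO libraries were below the WT libraries by 0.15 on average, a difference (-0.15, SE 0.0907) as wide as the gap of 0.16 between the WT libraries. Exons of Erap1 and of Cast lie on opposite strands over each other in GENCODE M21, and Cast stood at 12.60 and 12.53 in KO and at 12.24 and 12.07 in WT (adjusted p = 0.0501 in limma). The kit keeps strand, but whether counting used it is not given in the sources used here, so the Erap1 value is uncertain to that extent. Npepps (ENSMUSG00000001441), the puromycin-sensitive cytosolic aminopeptidase, was at 11.26 and 11.41 in KO and 11.33 and 11.27 in WT, with overlapping groups and a difference of 0.03 (SE 0.0911). Lap3 (ENSMUSG00000039682), the cytosolic leucine aminopeptidase, was at 10.33 and 10.24 in KO and at 10.24 and 10.35 in WT, so the groups again overlapped (-0.0092, SE 0.0946).

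The intracellular dipeptidyl peptidases share with CD26 the preference for proline in the penultimate position. Dpp8 (ENSMUSG00000032393) was at 12.58 and 12.66 in KO and 12.75 in each WT library. Its groups did not overlap, with a difference of -0.13 (SE 0.0785, 95% interval -0.32 to 0.06). Dpp9 (ENSMUSG00000001229), its close relative and an inhibitor of NLRP1 inflammasomes, was at 11.34 and 11.20 in KO and 11.20 and 11.22 in WT, so the groups overlapped (0.06, SE 0.0891). Dpp7 (ENSMUSG00000026958), the vesicular enzyme also called DPP2, had the lowest values of the set, 9.69 and 9.78 in KO and 9.84 and 9.96 in WT, with a difference of -0.16 (SE 0.0947, 95% interval -0.39 to 0.06). For the 7 genes other than Anpep and Dpp4, the 95% intervals lay within -0.39 and 0.28, which leaves room for modest differences in either direction. These intervals are on the deposited log2 scale, which compresses low values. For Dpp7 the difference was -0.30 with log2(count + 1) values, and counts were 1.23-fold lower in KO.

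In 6 of the 9 genes the KO and WT values did not overlap, lower in KO for Anpep, Dpp4, Dpp7, Dpp8 and Erap1 and higher for Lnpep. Over all genes tested the groups did not overlap in 56.2%, and in 28.2% with KO lower. With 2 libraries a group, separation of the values is therefore common in this table.

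To compare levels between genes, normalized counts were divided by the length of the longest coding transcript in GENCODE M21. In WT the order was Anpep at 2609 ± 45.2 normalized counts per kb (SD, n = 2), Dpp4 at 2487 ± 54.3, Dpp8 at 1324 ± 4.75, Lnpep at 1091 ± 15.5, Dpp9 at 555 ± 5.20, Erap1 at 541 ± 48.7, Npepps at 481 ± 18.3, Lap3 at 346 ± 30.0 and Dpp7 at 300.3 ± 31.2. The ranges of the WT libraries overlapped for Dpp9 and Erap1. For Anpep and Dpp4 (2577 against 2525), for Erap1 and Npepps (506 against 494) and for Lap3 and Dpp7 (325 against 322) the lowest value of the first stood just above the highest of the second.

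In KO the order per kb changed at the top. Dpp4 led at 1274 ± 14.8 (SD, n = 2), followed by Dpp8 at 1204 ± 51.0, Lnpep at 1144 ± 31.9 and Anpep at 1017 ± 77.9. These KO values lay close together. The lowest of the first stood just above the highest of the second for Dpp4 and Dpp8 (1263 against 1240) and for Dpp8 and Lnpep (1168 against 1167). The surface enzymes Anpep, Dpp4 and Lnpep together made up 64.2% and 62.9% of the per-kb sum of the 9 genes in WT 1 and WT 2, and 51.1% and 50.2% in KO A and KO B. Within that sum Anpep went from 27.2% and 26.4% to 15.7% and 14.2%, and Dpp4 from 26.0% and 25.1% to 18.8% and 18.7%, while Lnpep stood at 11.1% and 11.3% in WT and at 16.5% and 17.3% in KO. Because these are shares of 1 sum, the share of Lnpep moves up when those of Anpep and Dpp4 move down.

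**Figure D3:**
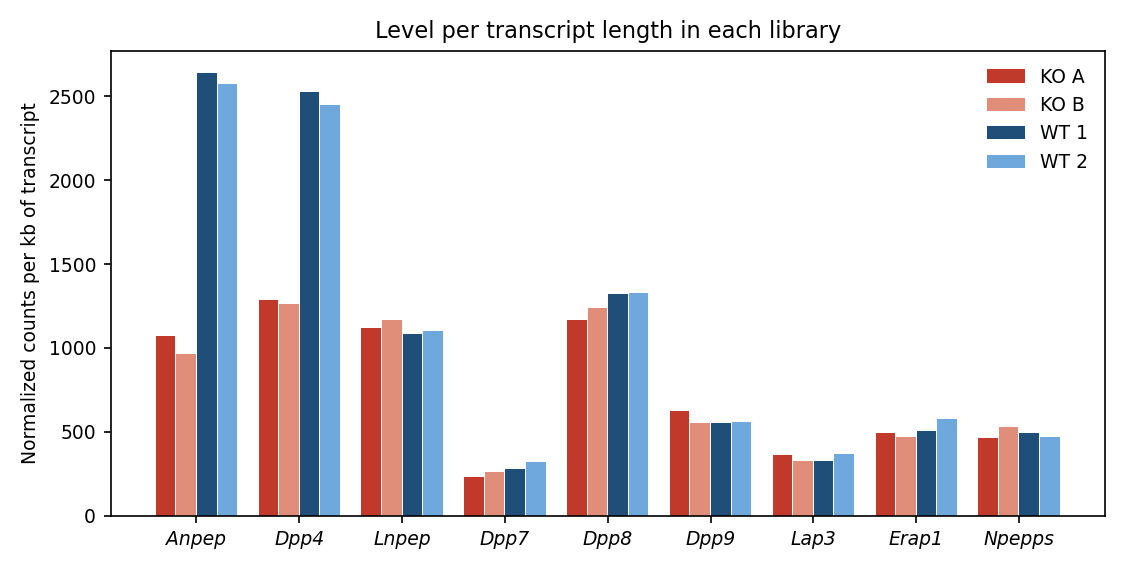
Normalized counts per kb of the longest coding transcript (y axis, from 0) for each peptidase gene (x axis), with 1 bar per library and no error bar. In WT, Anpep (2640 and 2577) and Dpp4 (2525 and 2448) stand well above Dpp8 (1321 and 1327), and in KO both come down to the level of Dpp8 and Lnpep.

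The rest of the peptidase families was described with 6 lists grouped by function, 59 genes in all, of which 53 were in the table and 46 were tested. Among these 46 genes 4 rose, 1 fell and 41 missed the threshold (limma, adjusted over all genes), and their median difference was -0.01. The share past the threshold was 10.9%, against 6.93% of all genes tested. None of the 46 had a log2 difference as low as that of Dpp4. In normalized counts, however, Dpp10 was 2.56-fold lower in KO, against 1.95-fold for Dpp4. Every call among the peptidases was lost when KO A or KO B was left out. With quantile normalization Dpp10, Metap2 and Cpd also missed the threshold (adjusted p = 0.0574, 0.0599 and 0.0712).

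Among other M1 aminopeptidases 0 of 4 tested passed (Rnpep, Rnpepl1, Aopep and Lta4h), with differences from 0.01 to 0.24. Enpep, Trhde and Lvrn had no row in the table. Of 9 other dipeptidyl and prolyl peptidases 1 fell and 8 did not pass. It was Dpp10, a catalytically inactive relative of CD26 that serves as a potassium channel subunit, at 9.51 and 9.54 in KO against 10.51 and 10.02 in WT, a fall by 0.74 (SE 0.160, adjusted p = 0.0466). WT 1 was the highest library, and without it the difference was -0.50 (adjusted p = 0.0568). Fap, the closest active surface relative of CD26, was below the filter.

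Of 10 other aminopeptidases 1 rose and 9 did not pass. Metap2, which removes the initiator methionine from new proteins, was at 12.57 and 12.52 in KO and 12.04 and 12.19 in WT, a rise by 0.43 (SE 0.0880, adjusted p = 0.0415), with an adjusted p of 0.154 without WT 1. None of 5 dipeptidases passed. Among 8 intracellular oligopeptidases and carboxypeptidases, Ide, the insulin-degrading enzyme, rose by 0.65 (SE 0.114, adjusted p = 0.0294), with 1.87 times the counts, and 7 did not pass. Its adjusted p was 0.0520 without WT 1.

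Of 10 surface endopeptidases, carboxypeptidases and transpeptidases 2 rose, the other way from CD13 and CD26, and 0 fell, while 4.69% of all genes tested rose. The other 8 did not pass. As a whole the list did not move up, with differences from -0.43 to 0.82 and a median of -0.01. Ace, a membrane dipeptidyl carboxypeptidase that makes angiotensin II and can also trim class I peptides from the carboxyl end, was at 14.70 and 14.52 in KO against 14.00 and 13.75 in WT, a rise by 0.73 (SE 0.114, adjusted p = 0.0242). Cpd, a carboxypeptidase of the trans-Golgi network and surface, was at 11.64 and 12.17 in KO against 11.18 and 10.99 in WT, a rise by 0.82 (SE 0.177, adjusted p = 0.0466). The KO libraries differed in Cpd by more than any of the 9 members did, and its adjusted p was 0.0522 without WT 2, 0.0506 with log2(count + 1) values and 0.0543 with libraries centred on their medians. Mme (CD10), another surface peptidase of leukocytes, was below the filter.

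**Figure D4:**
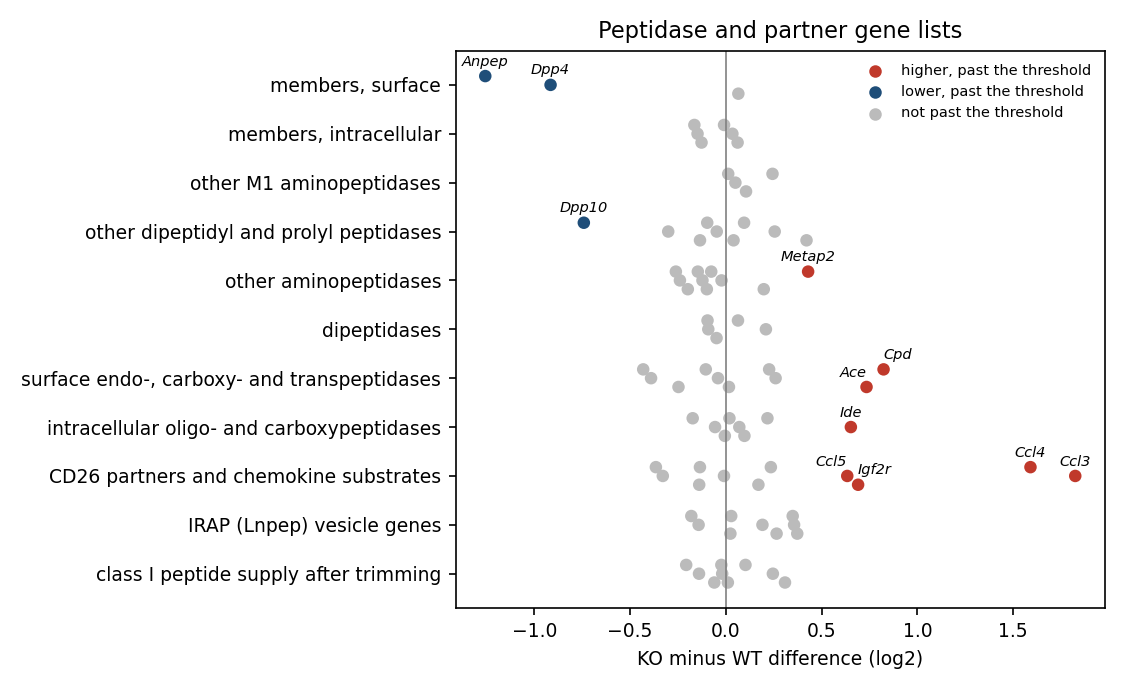
KO minus WT difference on the log2 scale (x axis) of every tested gene of the 9 peptidase genes and of the peptidase and partner lists (y axis, 1 row per list, points shifted up or down only to separate them). Red and blue points passed an adjusted p of 0.05 in limma, and grey points did not. Most peptidases lie near 0, with Anpep, Dpp4 and Dpp10 to the left and Ace, Cpd, Ide and Metap2 to the right.

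Genes that work with these enzymes were taken from 3 further lists. For CD26 the list held binding partners, largely known from human cells, chemokines taken as its substrates, and genes that are neither, such as Adk and Entpd1. Whether CD26 clips each of these chemokines was not tested. Among 11 tested members 4 rose and 0 fell, the other 7 missed the threshold, and the median difference was 0.17. Over all genes tested 4.69% rose. The chemokine Ccl3 was at 10.90 and 11.12 in KO against 8.92 and 9.46 in WT, a rise by 1.82 (SE 0.183, adjusted p = 0.0147). Its relative Ccl4 rose by 1.59 (SE 0.258, adjusted p = 0.0258) and Ccl5 by 0.63 (SE 0.123, adjusted p = 0.0374). Igf2r, the mannose 6-phosphate receptor to which CD26 binds, rose by 0.69 (SE 0.0807, adjusted p = 0.0147). As with the peptidases, the calls of this list needed both KO libraries. Without KO A the rise was 1.9 for Ccl3 and 0.70 for Igf2r, and without KO B it was 1.7 and 0.68. The Ccl4 call was lost with log2(count + 1) values (adjusted p = 0.0578) and the Ccl5 call without WT 1 (0.0539) and with quantile normalization (0.0563). Of the 5 chemokines of the list that were tested, these 3 rose and 2 did not pass, Ccl22 at -0.33 and Cxcl9 at -0.14. Whether the chemokine RNA came from the dendritic cells was not tested, and 8 of 9 markers of NK cells, which make the same chemokines, rose too.

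In the list of IRAP vesicle genes 0 of 9 tested passed, with differences between -0.18 and 0.37 and a median of 0.19. In the list of class I peptide transport and loading genes downstream of Erap1 0 of 9 passed, between -0.21 and 0.31 with a median of -0.02. Lnpep and Erap1 themselves were not past the threshold either.

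Dendritic cell markers were present in all 4 libraries, and many of them, though not all, were lower in KO, as Anpep and Dpp4 were. Over all genes tested 2.23% fell and 4.69% rose past the threshold. Of 13 pan dendritic cell genes 8 fell, 0 rose and 5 did not pass, with a median difference of -0.49. Irf8 (-0.12), Irf4 (0.01) and Ccr7 (0.13) were among the 5. Itgax, the integrin CD11c, fell by 0.73 (SE 0.103, adjusted p = 0.0206 in limma) and Flt3, a growth factor receptor of the lineage, fell by 0.73 (SE 0.0779, adjusted p = 0.0147). The list held 1.37% and 1.28% of normalized counts in KO and 1.85% and 1.90% in WT. Such a share is weighted to genes with many counts. Here Cd74 had the most (mean 235607 in WT), and its difference of -0.34 was not past the threshold. Of 12 conventional DC1 genes 4 fell, 1 rose and 7 did not pass, with a median of -0.37, and the list held 0.320% and 0.317% of counts in KO against 0.433% and 0.518% in WT. The gene that rose was Cd24a (0.66). Wdfy4, which fell, had the most counts of the DC1 list (mean 78830 in WT). Of 9 conventional DC2 genes 2 fell, 1 rose (Klf4, 1.19) and 6 did not pass, and of 6 plasmacytoid genes 0 passed.

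Anpep and Dpp4 were compared with these markers library by library. Measured against the median of the pan dendritic cell genes in the same library, the KO minus WT difference was -0.76 for Anpep and -0.42 for Dpp4, in place of -1.26 and -0.91. Of the 13 genes 0 fell further than Anpep and 1, Ciita, fell further than Dpp4. Against the conventional DC1 genes the differences were -0.86 and -0.52, and 0 of the 12 fell further than either gene. Since Anpep and Dpp4 were proposed with their falls known, these comparisons are a description. Conventional DC2 genes were not compared in this way. Of the 9 tested, 2 fell past the threshold, 1 rose and 6 did not pass. The 2 that fell, Esam and Clec4a4, were 2.70-fold and 2.24-fold lower in counts. The WT libraries differed in the conventional DC1 markers, whose median gave -0.37 for WT 1 minus WT 2, whereas the same subtraction gave 0.03 for Anpep and 0.04 for Dpp4.

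Some markers of other cells rose in KO, and none of those listed fell past the threshold. The counts below stand beside 4.69% of all genes tested that rose. Of 9 NK cell genes 8 rose and 0 fell (0.0489% and 0.0602% of counts in KO, 0.0292% and 0.0280% in WT). Of 8 erythroid genes 6 rose and 0 fell (0.0904% and 0.131% against 0.0130% and 0.0383%). Of 10 macrophage genes 4 rose and 6 did not pass (0.0519% and 0.0717% against 0.0426% and 0.0359%), of 8 monocyte genes 4 rose and 4 did not pass (0.445% and 0.435% against 0.317% and 0.266%) and of 9 neutrophil genes 2 rose and 7 did not pass (0.615% and 0.614% against 0.557% and 0.209%). CD13 is also carried by monocytes, macrophages and neutrophils. Of 10 T cell genes, a lineage that carries CD26, 4 were tested and 2 rose, and of 6 B cell genes 1 rose. No marker was at 0 in any library. The part of these cells in the Anpep and Dpp4 values was not tested.

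**Figure D5:**
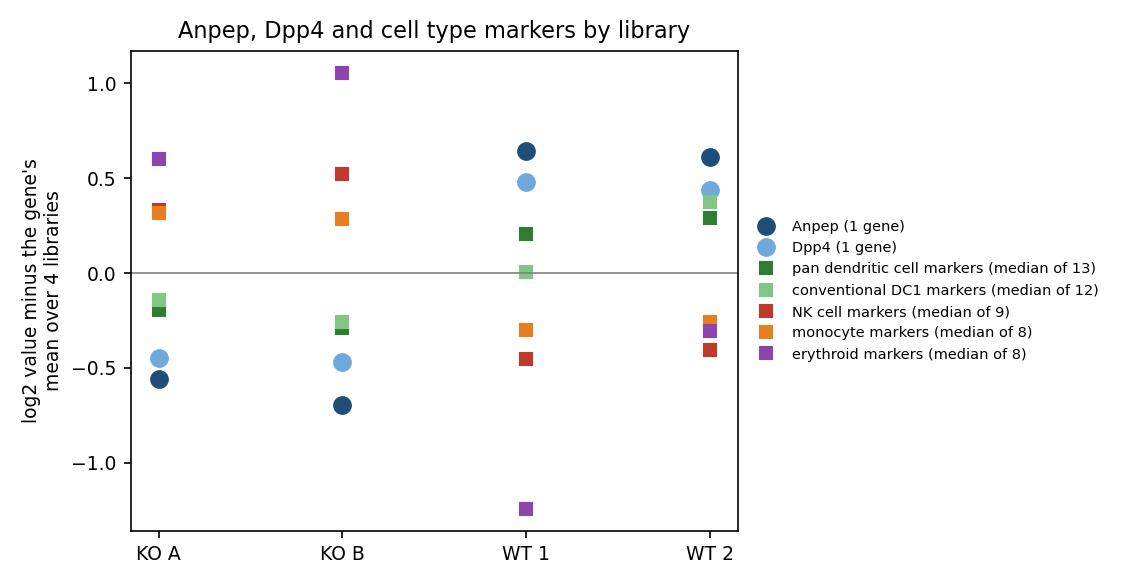
Deposited log2 value minus the gene's own mean over the 4 libraries (y axis) in each library (x axis), for Anpep and Dpp4 (circles) and as the median over tested marker genes of 5 cell type lists (squares). Anpep and Dpp4 are low in both KO libraries, as are the medians of the dendritic cell lists by a smaller amount, and the medians of the NK cell, monocyte and erythroid lists are high there.

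The genes most like Anpep and Dpp4 were found by the root-mean-square distance between log2 values, each taken relative to the gene's own mean, over the 4 libraries. Nearest to Anpep were Siglece (distance 0.102), Rps7 (0.116), Rgs12 (0.129) and Gm13835 (0.134), and nearest to Dpp4 were Hap1 (0.0275), Rgs12 (0.0531), Fgf2 (0.0583) and Zfp619 (0.0598). Anpep and Dpp4 lay 0.175 apart. With 2 KO and 2 WT libraries this measure mostly reflects the size of the KO minus WT difference. In normalized counts these genes differed more, from 2.12-fold lower in KO for Rps7 to 7.18-fold for Siglece, because the log2 scale of the table compresses low values. Rps7 has near-identical copies that could share its reads.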

How the data were processed

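Total RNA of dendritic cells sorted from mouse spleen was sequenced in 2 KO and 2 WT libraries with a stranded total RNA kit for low input, per the labels' protocols. The authors deposited log2 values for 17300 Ensembl genes, scaled between libraries. For the authors' steps, the submitters' processing notes list Salmon 1.10.1, DESeq2 and build GRCm39 without a role or order. Which annotation they counted on, and how genes were filtered, is not stated. All libraries share the lowest value of 8.04, as a variance-stabilizing transform gives, and undoing it from that value gave normalized counts. Below 20 counts, between 49.9% and 61.3% lay within 0.1 of a whole multiple of 1 step per library, so reads were not recovered and no count model was run. Sequencing depth is not known.

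Symbols came from GENCODE M21 (17289 of 17300 identifiers matched) and RefSeq synonyms. Genes whose mean exceeded the lowest value by 1 log2 unit or more were tested with limma 3.58.1 in R 4.3.3, with an intensity trend, two-sided, with Benjamini-Hochberg adjustment and a threshold of 0.05, and the script was tested on simulated data. A log2 difference understates the fold of low genes, so count ratios stand beside some. The 9 genes and all lists were chosen with earlier results of these data known. Named were the 9 genes, at most 4 genes past the threshold per peptidase or partner list, and 4 nearest genes each for Anpep and Dpp4. Marker genes, Cast, Siglech and Ddx3y were named after their values were seen. Genes named as absent, below the filter or not past the threshold were also added. The tests were repeated with 10 alternative settings.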

Additional observations from a re-analysis of the deposited data

How the results depend on the processing

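Over the 6 alternatives that kept the 4 libraries (no filter, a filter of 2 log2 units, log2 of the count plus 1, quantile normalization, centring on medians, no intensity trend) the difference of Anpep lay between -1.36 and -1.26 and that of Dpp4 between -0.97 and -0.91. Leaving out 1 library gave between 0 and 820 genes past the threshold in place of 822, between 0 and 2 of the 9 genes in place of 2, and between 0 and 5 other peptidases in place of 5. Limma called 0 genes of the table without KO A and 3 without KO B (2508 and 2448 at an unadjusted p under 0.05), with 1 KO library left and assumed to vary like the WT libraries. In these fits neither Anpep nor Dpp4 was past the threshold. The other peptidases then gave 0 calls, with 10 and 12 at an unadjusted p under 0.05, and 3 calls without WT 1. With quantile normalization 2 other peptidases passed in place of 5; the cause was not tested. No result changed sign among the named genes past the threshold. The depth in reads is not known, so its limit on weakly expressed peptidases could not be set. No paired analysis was possible because numbers in the KO columns differ from those in the KO titles, so replicate numbers could not be matched to WT.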
